A study of Mus musculus with 4 samples.

Results

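The 96 genes described here are the protein-coding genes of the mitochondrial DNA and the nuclear genes named as subunits of complexes I, III, IV and V, chosen by gene symbol from the 31253 rows that all 4 count files share. Of these, 13 are mitochondrially encoded (symbols starting mt-Nd, mt-Co, mt-Cytb or mt-Atp) and 83 are nuclear (Ndufa, Ndufb, Ndufc, Ndufs and Ndufv genes, Uqcr genes, Cox4 to Cox8 genes and Atp5 genes). The rule reads gene symbols alone. They were followed in droplet-based single-cell RNA counts of CD8+ T cells that were sorted for CD45 and CD8 out of tumours of MB49 cells, a bladder carcinoma line from the mouse.

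Each of the 4 groups was 1 library made from the pooled cells of 3 mice. WT and KO were C57BL/6Slac mice aged 10 to 12 weeks with subcutaneous tumours, the first wild type and the second named BFAR-CD8-KO, by its label a deletion of Bfar in the CD8+ lineage. The sources used here do not say which promoter drives the deletion. Young and Aged were Rag1-/- hosts aged 8 to 10 weeks, which lack mature lymphocytes. Their strain is given as B6.129S7-Rag1tm0Mom/J for Young and B6.129S7-Rag1tm1Mom/J for Aged. These hosts were inoculated with tumour cells and injected intravenously on the same day with CD8+ T cells, taken from 8-week-old donors for Young and from 18-month-old donors for Aged. The kits differed, a 3' kit for the first pair and an immune profiling kit for the second, so levels were compared only within a pair.

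Oxidative phosphorylation passes electrons from NADH and other donors through complexes I to IV to oxygen and uses the resulting proton gradient to make ATP at complex V. Complexes I, III, IV and V are mosaics: their catalytic core is partly translated inside the mitochondrion from mitochondrial DNA, and the remaining subunits are imported from the cytosol. Activated and dividing T cells are known to enlarge their mitochondrial mass, and memory and progenitor CD8+ T cells are known for reliance on respiration, whereas terminally exhausted cells are known for poor mitochondrial function. The 3 gates below follow these states: Mki67 marks dividing cells, Havcr2 encodes the inhibitory receptor TIM-3 of exhausted cells, and Tcf7 encodes the transcription factor TCF-1 of progenitor and memory cells.

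The gated barcodes had at least 1 UMI (unique molecular identifier, 1 counted molecule) of a CD3 gene and of Cd8a or Cd8b1 and were kept from 1000 UMIs and 500 genes upward with up to 10% of UMIs from mitochondrial genes. They numbered 8966 in WT, 8153 in KO, 9803 in Young and 8252 in Aged, with 60805219 to 76204380 UMIs per library and median totals of 4510 to 6870. All 8 listed CD8 T cell markers were present in every library. Barcodes with at least 2 UMIs of markers of other cell types numbered 780, 401, 1026 and 707. No doublets were called, and 16 barcodes were shared by WT and KO and 114 by Young and Aged. Levels are UMIs per 1000000 UMIs of the same barcodes (CPM). Bfar itself stood at 32.1 CPM (95% counting interval 30.9 to 33.4) in WT, 22.4 (21.3 to 23.5) in KO, 22.1 (21.0 to 23.4) in Young and 26.0 (24.8 to 27.3) in Aged. The KO to WT ratio was 0.697 (0.654 to 0.743), so the library labelled KO still held Bfar transcripts. Counts at the transcript's end may lie outside the deleted part, but the source of the remaining counts was not tested.

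Promoters of a few members are shown because the results below turn on these genes and because nuclear subunits are known to share binding sites of NRF1 and of ETS factors such as GABP. The windows are those of RefSeq on GRCm38.p6, each 300 bases around the annotated start and written 5′ to 3′ on the gene's strand. Ndufc2 (chr7:97399753-97400052, + strand) had the highest difference in dividing cells. Ndufa6 (chr15:82354242-82354541, - strand) and Cox7a2l (chr17:83514284-83514583, - strand) were low in dividing and in exhausted-type cells. Atp5k (chr5:108434350-108434649, - strand) had the highest ratio of Aged to Young. Capitals mark an NRF1 word, a 10-letter form of its site with 1 free base, or the ETS word CCGGAAG, each searched on both strands; the capitals of Ndufa6 show an NRF1 match, and Atp5k holds an NRF1 match followed by an ETS match.
Ndufc2: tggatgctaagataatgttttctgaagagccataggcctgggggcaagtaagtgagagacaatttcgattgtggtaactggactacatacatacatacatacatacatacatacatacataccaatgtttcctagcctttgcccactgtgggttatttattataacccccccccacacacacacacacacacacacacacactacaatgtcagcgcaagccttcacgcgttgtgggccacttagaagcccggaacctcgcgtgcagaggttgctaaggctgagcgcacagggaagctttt
Ndufa6: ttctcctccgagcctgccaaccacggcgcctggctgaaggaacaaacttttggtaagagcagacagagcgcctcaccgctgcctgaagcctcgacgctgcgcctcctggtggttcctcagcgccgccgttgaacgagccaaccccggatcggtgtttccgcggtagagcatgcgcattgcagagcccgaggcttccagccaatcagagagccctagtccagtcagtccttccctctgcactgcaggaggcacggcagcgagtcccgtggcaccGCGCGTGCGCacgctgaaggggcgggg
Cox7a2l: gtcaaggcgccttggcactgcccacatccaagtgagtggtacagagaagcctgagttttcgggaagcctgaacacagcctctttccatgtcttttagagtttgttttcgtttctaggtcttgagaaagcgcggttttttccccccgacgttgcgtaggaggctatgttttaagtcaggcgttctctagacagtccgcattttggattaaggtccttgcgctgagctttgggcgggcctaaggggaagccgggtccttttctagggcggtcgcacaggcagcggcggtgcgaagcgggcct
Atp5k: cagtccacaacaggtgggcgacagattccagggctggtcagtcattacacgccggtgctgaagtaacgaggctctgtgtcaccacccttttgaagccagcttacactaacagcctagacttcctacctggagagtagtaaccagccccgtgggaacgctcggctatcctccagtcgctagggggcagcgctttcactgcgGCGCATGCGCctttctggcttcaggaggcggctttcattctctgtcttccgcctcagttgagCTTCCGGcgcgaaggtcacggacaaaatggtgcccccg
The NRF1 word was present in the windows of 15 of 66 nuclear members (22.7%) and of 1254 of 17491 genes overall (7.17%). The ETS word was present in 15 of 66 members (22.7%) and in 12.9% of all windows. Matches of different words were allowed to overlap, and 3 members (Atp5h, Atp5k and Cox6a1) held both. In Ndufc2 and Cox7a2l neither was found, which says only that these letters are absent from the window. The median log2 difference in dividing cells was 0.24 for the 15 tested members with the NRF1 word and 0.15 for the 47 tested members without it, and 0.17 and 0.19 for the ETS word. In Havcr2+Tcf7- against Tcf7+Havcr2- barcodes the order was reversed for both words, with 0.06 and 0.09 for NRF1 and 0.15 and 0.08 for ETS. A link of either word to these differences was not tested.

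The question of the first comparison is how these transcripts differ between dividing (Mki67+) and other (Mki67-) CD8+ T cells, with the 4 libraries as the replicates. Nuclear subunit transcripts took a larger share of all UMIs in Mki67+ barcodes in each library. They made up 2.44% against 2.07% in WT, 2.34% against 2.02% in KO, 2.63% against 2.32% in Young and 2.65% against 2.34% in Aged. The ratio was 1.18 in WT, 1.16 in KO, 1.14 in Young and 1.13 in Aged, so the 4 libraries lay close together. Mitochondrially encoded transcripts differed less: their ratio was 1.02, 0.951, 1.03 and 1.02 in the same order. As a result the ratio of mitochondrially encoded to nuclear transcripts was lower in Mki67+ barcodes of each library, by a factor of 0.864 in WT, 0.821 in KO, 0.908 in Young and 0.897 in Aged.

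**Figure D1:**
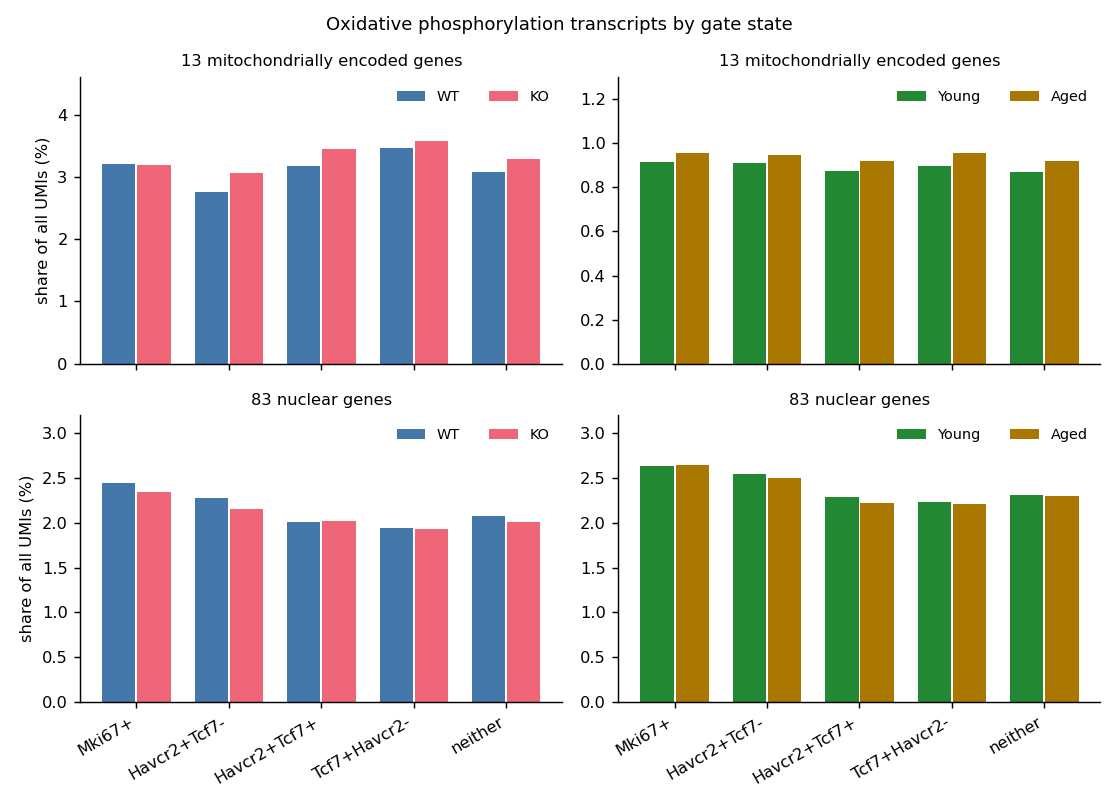
Share of all UMIs (%) taken by the 13 mitochondrially encoded genes (top) and the 83 nuclear genes (bottom) in 5 exclusive gate states, with WT and KO on the left and Young and Aged on the right. Each bar is 1 library, so there is no error bar. The mitochondrial panels have different scales, and levels were not compared between the pairs, whose kits and hosts differ. The nuclear bars are highest in Mki67+ in all 4 libraries, and the lowest mitochondrial bar of WT is that of Havcr2+Tcf7- (2.75%).

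Among single nuclear genes, 73 of the 83 were measured at a mean of 10 CPM or more in this comparison, and 47 of these 73 rose and 4 fell in Mki67+ barcodes by edgeR's quasi-likelihood test with library as a term (Benjamini-Hochberg adjusted p under 0.05 over all genes). Of all 7640 genes tested, 30.1% were called higher and 35.4% lower. The members' median log2 difference was 0.17, against -0.04 over all genes. By complex, 24 of 36 nuclear complex I genes rose and 2 fell, 5 of 8 of complex III rose and 1 fell, 8 of 12 of complex IV rose and 1 fell, and 10 of 17 of complex V rose and none fell. The 47 genes that rose were higher in 4 of 4 libraries. On plain UMI totals, without edgeR's TMM factors, 61 were called higher and 3 lower, against 37.6% and 27.6% of all genes. A difference between the WT and KO pair and the Young and Aged pair was called by edgeR for none of the members (2 mitochondrially encoded and 7 nuclear genes had an unadjusted p under 0.05) and for 0.0785% of all genes higher and 0.105% lower.

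Ndufc2, an accessory subunit of the complex I membrane arm (GRCm38 chromosome 7, 97400003 to 97407802, + strand), rose most. Its level in Mki67+ against Mki67- barcodes was 207 against 131 CPM in WT, 174 against 118 in KO, 220 against 137 in Young and 222 against 145 in Aged. The Mki67+ value was the higher one in each library, and the edgeR log2 difference was 0.55 ± 0.04 (SE, adjusted p = 3.6e-05). Atp5pb, subunit b of the ATP synthase stalk, stood at 520 against 333 in WT, 450.3 against 309 in KO, 452 against 321 in Young and 435 against 309 in Aged (log2 difference 0.47 ± 0.04, edgeR adjusted p = 1.3e-04). Ndufc1, a small accessory subunit of complex I, followed with a log2 difference of 0.46 ± 0.04 (edgeR adjusted p = 1.5e-04). Both genes were higher in the Mki67+ barcodes of each library.

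The genes that fell were Ndufa6, Uqcrh, Cox7a2l and Ndufa13, the last chosen after its values were seen because so few genes fell. Ndufa6, a complex I accessory subunit that carries the mitochondrial acyl carrier protein, stood at 183 against 242 CPM in WT, 188 against 250 in KO, 339 against 442 in Young and 290.5 against 425 in Aged. It was lower in 4 of 4 libraries, with a log2 difference of -0.52 ± 0.04 (edgeR adjusted p = 8.0e-05). Uqcrh, the hinge protein of complex III, stood at 722 against 864 in WT, 756 against 891 in KO, 540.3 against 716 in Young and 516 against 708 in Aged (log2 difference -0.42 ± 0.05, edgeR adjusted p = 4.4e-04). Cox7a2l, a factor that joins complexes III and IV in supercomplexes, stood at 342 against 405 in WT, 329 against 415 in KO, 183 against 234 in Young and 170 against 223 in Aged (log2 difference -0.41 ± 0.04, edgeR adjusted p = 2.0e-04). Each was lower in every library. Ndufa13, a complex I subunit also known as GRIM-19, fell by 0.18 on the log2 scale (edgeR adjusted p = 0.0082), but its call was lost on plain UMI totals (adjusted p = 0.0502), and its reads may be shared with Yjefn3, which overlaps it on the same strand.

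Among mitochondrially encoded genes, mt-Cytb, the cytochrome b of complex III, was the only one of 13 called higher and mt-Co1, the catalytic subunit of complex IV, the only one called lower. Over all genes 30.1% were called higher and 35.4% lower, so few of the 13 were called. The level of mt-Co1 was 5584 against 6181 CPM in WT, 5880 against 6804 in KO, 2238 against 2405 in Young and 2351 against 2594 in Aged. It was lower in every library (log2 difference -0.23, edgeR adjusted p = 4.0e-04), whereas the call for mt-Cytb (log2 difference 0.14, edgeR adjusted p = 0.027) was lost in several alternatives and its difference was -0.06 in barcodes matched on UMI total. The other 11 had log2 differences from -0.10 to 0.07.

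Mki67+ barcodes held more UMIs, and barcodes with more UMIs held a larger nuclear share on both sides of the gate. Median UMI totals were 12272 against 6030 in WT, 12165 against 6589.5 in KO, 9281.5 against 4149 in Young and 11773 against 5253 in Aged. Among Mki67- barcodes the nuclear share rose over 4 equal bins of the library's UMI totals from 1.85% to 2.22% in WT, from 1.82% to 2.15% in KO, from 2.07% to 2.53% in Young and from 2.05% to 2.62% in Aged. Over the same bins the share in Mki67+ barcodes rose from 1.95% to 2.48%, from 1.84% to 2.40%, from 2.10% to 2.67% and from 1.79% to 2.72%. In the highest bin and the one next to it Mki67+ barcodes exceeded Mki67- barcodes in all 4 libraries. In the second lowest bin they were below them in Young (2.11% against 2.16%) and Aged (2.08% against 2.18%), and in the lowest bin in Aged.

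**Figure D2:**
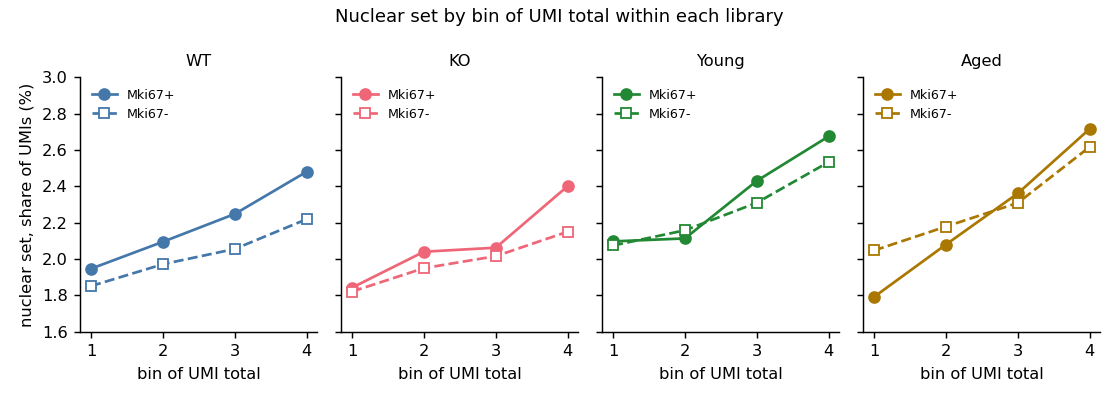
Nuclear set as a share of all UMIs (%, axis from 1.6 to 3.0) in 4 bins of the UMI total within each library, each with the same number of gated barcodes, for Mki67+ (filled) and Mki67- (open) barcodes. Each point is the sum over the barcodes of 1 library. The share rises with the UMI total on both sides of the gate, from 1.85% to 2.22% in the Mki67- barcodes of WT.

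When barcodes on both sides of the gate were matched on UMI total, the ratio of the nuclear share fell to 1.08 in WT, 1.07 in KO, 1.03 in Young and 1.00 in Aged (counting interval 0.999 to 1.01). The call counts changed with it: 15 nuclear genes were then higher and 14 lower, against 18.1% and 21.6% of all genes. Of the 15, 14 were among the 47 above, and all 4 genes that fell before were among the 14. Ndufc2 kept a log2 difference of 0.19 (edgeR adjusted p = 0.0053) and Atp5pb one of 0.13 (adjusted p = 0.023), while that of Ndufc1 was 0.05 (adjusted p = 0.35). Ndufa6 stayed at -0.33 (adjusted p = 5.1e-04), Uqcrh at -0.25 (adjusted p = 6.5e-04) and Cox7a2l at -0.26 (adjusted p = 5.5e-04). Of the mitochondrially encoded genes, mt-Nd2, mt-Co1, mt-Nd3, mt-Nd4 and mt-Nd5 were then called lower, with log2 differences of -0.15 to -0.17.

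Markers of some other cell types moved with the same gate. Summed tumour markers in WT stood at 799 CPM in Mki67+ against 196 in Mki67- barcodes, and mast cell markers at 1324 against 584. In WT the B cell (2.93 against 3.80), endothelial (10.6 against 16.0) and erythroid (0.05 against 7.54) lists went the other way. So did mast cell markers in Aged (1.54 against 2.11). Without the barcodes that held at least 2 UMIs of markers of other cell types, 49 nuclear genes were called higher and 4 lower, against 29.3% and 36.2% of all genes. Ribosomal protein transcripts went the opposite way, with 25.7% of UMIs in Mki67+ against 29.8% in Mki67- barcodes of WT, and 62 of 84 measured ribosomal protein genes fell.

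The lists around the pathway stood beside 30.1% of all genes higher and 35.4% lower in the same edgeR test. Of 74 mitochondrial ribosomal protein genes, 52 rose and 5 fell, with Mrpl18 highest at a log2 difference of 0.86 and Mrpl9 lowest at -0.40. Complex II and the electron carriers had 7 of 10 higher, led by Cyc1, the cytochrome c1 of complex III (0.63), and 2 lower, with Coq10b lowest (-0.33). Of 17 tricarboxylic acid cycle genes 9 rose, led by Idh2, the mitochondrial NADP-dependent isocitrate dehydrogenase (1.07), and 1 fell (Pdha1, -0.18). Assembly factors were divided, with 9 of 25 higher (Ndufaf2 highest, 0.42) and 8 lower (Surf1 lowest, -0.50), and glycolysis had 12 of 19 higher (Tpi1 highest, 0.89) and 1 lower (Pdk1, -0.27). Import genes had 9 of 23 higher (Timm50 highest, 0.78) and 1 lower, genes of mitochondrial DNA expression 4 of 16 higher (Slirp highest, 0.52) and 5 lower (Polg2 lowest, -0.36), and regulators of biogenesis 3 of 10 higher (Sp1 highest, 0.28) and 1 lower (Gabpb1, a GABP subunit, -0.45). The shares called higher among assembly factors, import, mitochondrial DNA expression and regulators of biogenesis lay near that of all genes. In matched barcodes, where 18.1% of all genes were higher and 21.6% lower, the mitochondrial ribosome had 18 higher and 7 lower and glycolysis 1 higher and 7 lower.

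**Figure D3:**
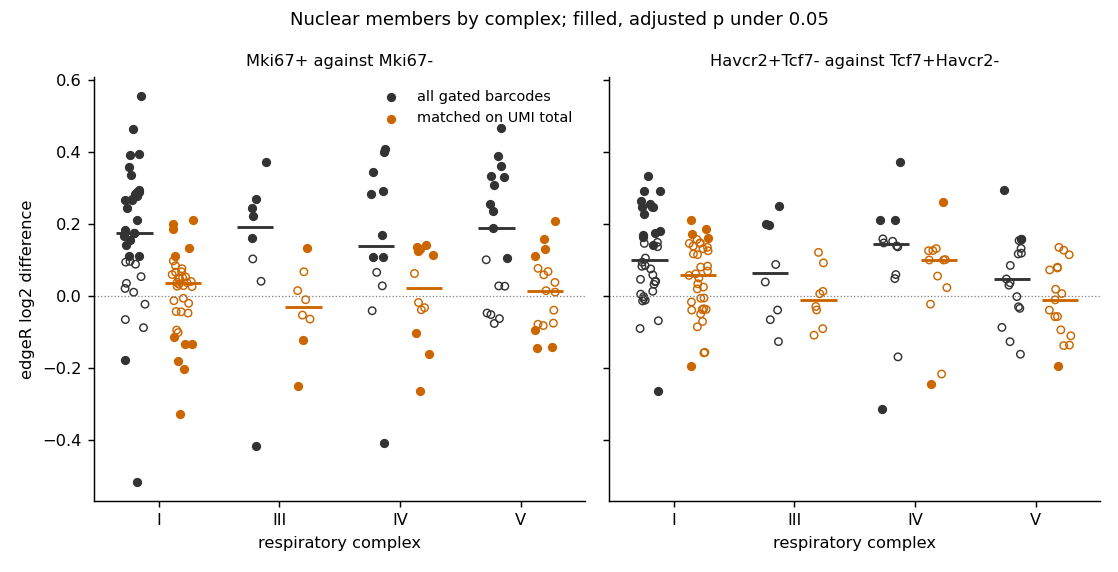
edgeR log2 difference of each measured nuclear gene by respiratory complex, in all gated barcodes (black) and in barcodes matched on UMI total (orange). Each point is 1 gene over the 4 libraries, filled where its adjusted p was under 0.05, and short lines are medians. The black points of the left panel lie mostly above 0 (median 0.17 over all 73 genes), and the orange medians lie near 0.

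The second comparison set Havcr2+Tcf7- barcodes, of the exhausted type, against Tcf7+Havcr2- barcodes, of the progenitor or memory type, among Mki67- barcodes. There were 1363 and 2456 in WT, 1355 and 2278 in KO, 820 and 2789 in Young and 1651 and 1697 in Aged. Mitochondrially encoded transcripts were a smaller share of UMIs in Havcr2+Tcf7- barcodes of WT (2.75% against 3.46%) and KO (3.07% against 3.58%), and about equal in Young (0.911% against 0.896%) and Aged (0.948% against 0.956%). The ratio was 0.796 (counting interval 0.793 to 0.800) in WT, 0.856 (0.853 to 0.860) in KO, 1.02 (1.01 to 1.03) in Young and 0.992 (0.984 to 1.000) in Aged. Nuclear transcripts were a larger share in each library, by 1.18 in WT, 1.11 in KO, 1.13 in Young and 1.13 in Aged. The ratio of mitochondrially encoded to nuclear transcripts was therefore lower in each library, by a factor of 0.677 in WT, 0.770 in KO, 0.896 in Young and 0.878 in Aged, and of 0.678, 0.780, 0.918 and 0.922 in barcodes matched on UMI total.

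By edgeR's quasi-likelihood test, 5 of the 13 mitochondrially encoded genes fell in Havcr2+Tcf7- barcodes and none rose, against 21.3% and 17.5% of 7373 genes. Most of these calls were lost on plain UMI totals. edgeR's TMM factors put the median of all genes at -0.02, and plain UMI totals put it at 0.09, a shift of all log2 differences that left the median of the 13 at -0.28 under TMM and at -0.17 on plain totals. On plain totals only mt-Nd2 was called. With DESeq2 size factors in edgeR instead of TMM factors, all 5 were called. With mitochondrial and ribosomal protein genes left out of the total, and no TMM factors, 4 of the 5 were called.

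The level of mt-Nd2, a core subunit of complex I, was 1174 against 1636 CPM in WT, 1294 against 1635 in KO, 282 against 308 in Young and 300.2 against 352 in Aged. It was lower in 4 of 4 libraries, with a log2 difference of -0.41 ± 0.08 (edgeR adjusted p = 0.0099), -0.29 on plain totals (adjusted p = 0.016) and -0.42 in matched barcodes (adjusted p = 0.0066). The other called genes were mt-Atp6, subunit a of ATP synthase (-0.30, adjusted p = 0.035), mt-Nd1, a core subunit of complex I (-0.29, adjusted p = 0.035), mt-Atp8, a small ATP synthase subunit (-0.28, adjusted p = 0.019), and mt-Nd6, the core subunit of complex I read from the opposite strand (-0.25, adjusted p = 0.049). Both mt-Atp6 and mt-Atp8, whose reading frames overlap, were lower in 4 of 4 libraries on the CPM scale, and mt-Nd1 and mt-Nd6 in 3 of 4.

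The remaining 8 were not called: mt-Nd3, mt-Nd4, mt-Nd4l and mt-Nd5 of complex I, mt-Cytb of complex III, and mt-Co1, mt-Co2 and mt-Co3 of complex IV. The level of mt-Nd4 was 1156 against 1577 CPM in WT, 1250 against 1617 in KO, 230.0 against 222 in Young and 209 against 213 in Aged. That of mt-Cytb was 2023 against 2572 in WT, 2202 against 2700 in KO, 972 against 865 in Young and 906 against 878 in Aged. Both genes were thus lower in WT and KO and within a small margin of equal, or higher, in Young and Aged.

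Fitted within pairs, 8 of the 13 were called lower in WT and KO and 0 in Young and Aged, by the same edgeR test with 2 libraries each, against 14.0% and 10.1% of all genes. At an unadjusted p under 0.05, 8 and 2 were lower. A test of the difference between the pairs, as an interaction in edgeR, called none of the 13 at an adjusted p under 0.05, with 0.0136% of all genes called higher and 0.0% lower; 10 of the 13 had an unadjusted p under 0.05. Kit, host and genotype differ together between the pairs and cannot be told apart. Without WT or without KO 1 gene was called lower, without Young 9 and without Aged 2. In barcodes matched on UMI total 9 were called lower, against 16.0% of all genes.

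**Figure D4:**
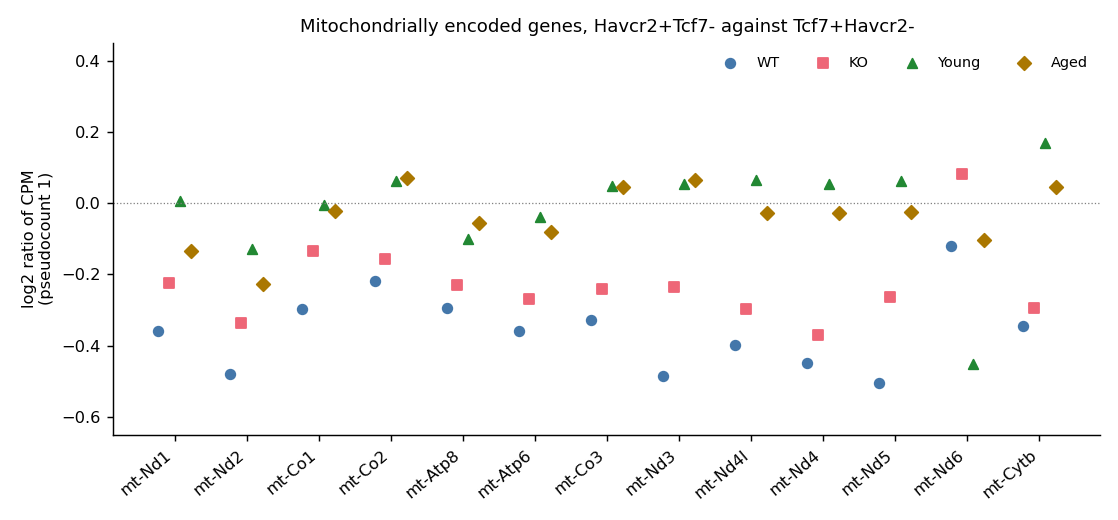
log2 ratio of CPM (pseudocount 1) between Havcr2+Tcf7- and Tcf7+Havcr2- barcodes for the 13 mitochondrially encoded genes, 1 point per library. WT and KO lie below 0 for every gene except mt-Nd6 in KO, and Young and Aged lie nearer to 0, with mt-Nd6 in Young as the exception.

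Of 73 nuclear genes tested, 22 rose and 2 fell in Havcr2+Tcf7- barcodes (edgeR, adjusted p under 0.05), against 17.5% and 21.3% of all 7373 genes. Their median log2 difference was 0.09. By complex 13 of 36 rose in complex I, 3 of 8 in III, 3 of 12 in IV and 3 of 17 in V, where the share of complex V lay near that of all genes. The counts moved with the setting: 5 rose and 3 fell in matched barcodes, against 14.3% and 16.0% of all genes, and 42 rose and 1 fell on plain totals, against 27.8% and 12.5%. Cox5a, a nuclear subunit of the complex IV core region, stood at 425 against 302 CPM in WT, 398 against 313 in KO, 594 against 427 in Young and 605 against 396 in Aged. It was higher in 4 of 4 libraries (log2 difference 0.37 ± 0.06, edgeR adjusted p = 0.0050), also in matched barcodes (0.26, adjusted p = 0.0073). Ndufs5, an accessory subunit of complex I, had a log2 difference of 0.33 ± 0.05 (edgeR adjusted p = 0.0023), and Atp5pb one of 0.29 ± 0.06 (adjusted p = 0.012), neither called in matched barcodes.

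Cox7a2l and Ndufa6 were the 2 nuclear genes that fell. Cox7a2l stood at 368 against 431 CPM in WT, 394 against 433 in KO, 211 against 247 in Young and 202 against 235 in Aged. Its log2 difference was -0.31 ± 0.05 (edgeR adjusted p = 0.0041), -0.25 in matched barcodes (adjusted p = 0.012) and -0.20 on plain totals (adjusted p = 0.018). Ndufa6 stood at 226 against 242 in WT, 244 against 252 in KO, 395 against 454 in Young and 378 against 458 in Aged. It was lower in 4 of 4 libraries (log2 difference -0.27 ± 0.06, edgeR adjusted p = 0.011), but not called on plain totals (-0.16, adjusted p = 0.073). Ndufa4, a subunit of complex IV, had the next lowest value, -0.17, which did not pass the test (adjusted p = 0.17).

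Other cell markers moved with this gate as well: mast cell markers summed to 1347 CPM in Havcr2+Tcf7- against 174 in Tcf7+Havcr2- barcodes of WT and 451 against 66.1 in KO, and to at most 1.28 on either side in Young and Aged. Dendritic markers summed to 111 against 5.03 in Young and 20.1 against 4.85 in Aged, and monocyte or macrophage markers to 151 against 82.5 in Young. Endothelial (8.62 against 27.1 in Young) and B cell lists went the other way in every library, as did tumour markers in WT (119 against 147). Without the barcodes that held at least 2 UMIs of markers of other cell types, the log2 differences of mt-Nd2, Cox5a and Cox7a2l were -0.40, 0.39 and -0.32. Ribosomal protein genes fell in 66 of 84 cases. Glycolysis stood out by its count, with 15 of 19 genes higher, led by Bnip3, a mitophagy receptor induced by low oxygen (log2 difference 1.58), and 1 lower (Pdk1, -0.28); in matched barcodes 16 were higher and none lower.

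The other mitochondrial lists stood beside 17.5% of all genes higher and 21.3% lower in that edgeR test. Of 74 mitochondrial ribosomal protein genes 23 rose (Mrpl22 highest, 0.57) and 4 fell (Mrpl23 lowest, -0.40). Assembly factors had 5 of 26 higher, led by Cox17, the copper chaperone of complex IV (0.78), and 2 lower (Cox10 lowest, -0.47). Complex II and the electron carriers had 4 of 10 higher (Etfb highest, 0.59) and 2 lower (Coq10b lowest, -0.45), the tricarboxylic acid cycle 2 of 17 higher and 2 lower, import 3 of 22 higher and 2 lower, mitochondrial DNA expression 2 of 16 higher and 3 lower (Polg2 lowest, -0.60), and regulators of biogenesis 0 of 10 higher and 3 lower (Gabpb1 lowest, -0.43).

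The single-gene gates gave secondary values, since detection of 1 gene favours deeper barcodes. In Tcf7+ against Tcf7- barcodes 11 of 13 mitochondrially encoded genes rose and none fell (median log2 difference 0.19), against 17.4% and 13.8% of all genes, and 1 of 73 nuclear genes rose (Cox7a2l, 0.16) and 14 fell. On plain totals 2 mitochondrially encoded genes were higher and 41 nuclear genes lower, against 10.3% and 26.4% of all genes. In Havcr2+ against Havcr2- barcodes 18 nuclear genes rose and 2 fell and 2 mitochondrially encoded genes fell, against 13.8% higher and 16.4% lower over all genes; in matched barcodes 0 nuclear genes rose and 6 fell and 6 mitochondrially encoded genes fell, against 8.06% and 8.18%.

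The third comparison set the library labelled KO, in which Bfar transcripts were still counted, against WT, and with 1 library per group it has counting intervals and no test. Mitochondrially encoded transcripts were 3.31% of UMIs in KO and 3.16% in WT, a ratio of 1.047 (counting interval 1.0455 to 1.049), and nuclear transcripts 2.09% and 2.17%, a ratio of 0.965 (0.963 to 0.967). The nuclear difference turned to a ratio above 1 under TMM scaling (log2 ratio 0.02, against -0.05 on plain totals). The ratio of mitochondrially encoded to nuclear transcripts, which no scaling alters, was 1.58 in KO and 1.46 in WT, a ratio of 1.09 (1.08 to 1.09).

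None of the 13 mitochondrially encoded or of the 73 measured nuclear genes was 1.5 times higher or lower in KO, where 0.431% of 7190 genes were higher and 2.16% lower, and none was 1.2 times higher or lower, where 3.71% were higher and 8.04% lower. The nuclear genes had a median log2 ratio of -0.06, against -0.04 over all genes. Of the 73, 60 were below 0, as were 4549 of all 7190 genes. By complex the medians were -0.09 for I, -0.06 for III, -0.04 for IV and -0.06 for V. Lowest were Ndufs7, a core subunit of complex I that carries an iron-sulfur cluster (104 CPM in WT and 88.9 in KO, ratio 0.853, interval 0.825 to 0.882), Atp5g3, a gene for the c-ring subunit (272 and 234, ratio 0.861, 0.843 to 0.879), and Ndufa9, an accessory subunit of complex I (64.1 and 55.2, ratio 0.861, 0.825 to 0.899). Highest were Ndufa3 (171 and 185, ratio 1.08), Atp5k (214 and 226, ratio 1.05) and Ndufb1-ps (388 and 407, ratio 1.05), the last of which the annotation types as a long non-coding RNA.

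Of the mitochondrially encoded genes, 12 of 13 were above 0, against 2641 of all 7190 genes. The 13 ranged from mt-Nd6 at 31.1 CPM in WT and 29.6 in KO to mt-Atp8 at 52.3 and 58.8. The abundant mt-Co1 stood at 6025 and 6602 and mt-Atp6 at 6770 and 6912. Among the lists around the members, 69 of 74 mitochondrial ribosomal protein genes lay below 0 (median log2 ratio -0.14), against 4549 of all 7190 genes. Mrpl38 stood at 44.3 CPM in WT and 27.8 in KO (ratio 0.628, 0.593 to 0.664). Import genes had a median of -0.14, complex II and carriers -0.12, assembly factors -0.11, the tricarboxylic acid cycle and mitochondrial DNA expression -0.09 each and glycolysis -0.07, while regulators of biogenesis had a median of -0.004 with 4 genes above 0 and 4 below. Idh2 stood at 15.03 and 8.70 (ratio 0.579, 0.524 to 0.640), Myc at 20.3 and 11.2 (0.549, 0.503 to 0.599) and Gabpb1 at 65.5 and 83.5 (1.28, 1.23 to 1.32).

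Cycling markers were lower in KO over the same barcodes, with a median log2 ratio of -0.53 and 9 of 9 measured below 0, and tumour markers summed to 127 CPM in KO against 353 in WT and fibroblast markers to 34.0 against 226. Without barcodes of other markers the log2 ratio was 0.09 for the mitochondrially encoded set and -0.04 for the nuclear set, and with equal weights of the gate states the nuclear value was -0.04. Without those barcodes the log2 ratios of Ndufs7 and Atp5g3 were -0.20 and -0.18 (-0.23 and -0.22 with them) and that of Ndufa9 was -0.14 (-0.21 with them), so that Ndufa4 (-0.18) and Ndufb3 (-0.18) lay below it. Atp5pb went from -0.17 to -0.05 and Atp5g1 from -0.17 to -0.05, both chosen after their values were seen. With equal weights of the gate states Ndufs7, Atp5g3 and Ndufa9 stood at -0.22, -0.20 and -0.19.

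The last comparison set T cells of old donors against those of young donors in the tumours of Rag1-/- hosts, again with 1 library each. Mitochondrially encoded transcripts were 0.944% of UMIs in Aged and 0.895% in Young (ratio 1.0545, counting interval 1.051 to 1.058), and nuclear transcripts 2.45% and 2.43% (ratio 1.010, 1.008 to 1.013). The nuclear direction turned, to log2 ratios of -0.008 or nearer 0, under TMM scaling, with equal weights of gate states and over all barcodes that passed the filters.

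No member was 1.5 times higher or lower, where 1.97% of 7669 genes were higher and 2.92% lower. At least 1.2 times higher were 4 of 73 nuclear and 2 of 13 mitochondrially encoded genes, and none was as much lower, against 15.4% and 7.47% of all genes. Atp5k, subunit e of ATP synthase, which takes part in dimers of the enzyme, stood at 85.1 CPM in Young and 124 in Aged (ratio 1.45, 1.403 to 1.505). Ndufb1-ps stood at 158 and 214 (ratio 1.35, 1.32 to 1.39), Cox7c, a small subunit of complex IV, at 498 and 627 (1.26, 1.24 to 1.28) and Ndufs1, the largest core subunit of complex I, at 27.6 and 33.9 (1.23, 1.15 to 1.31). Ndufs1 was chosen after its values were seen, because so few genes passed. The mitochondrially encoded ones were mt-Nd3 (43.4 and 58.4, ratio 1.35) and mt-Atp8 (173 and 228, ratio 1.32).

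The nuclear median was 0.03, with 42 above 0 and 31 below, against 0.08 over all genes, and that of the mitochondrially encoded genes 0.10. Of all 7669 genes, 5169 were above 0 and 2500 below. Lowest were Ndufa4 (452 in Young and 396 in Aged, ratio 0.876, 0.861 to 0.891), Atp5h, subunit d of the ATP synthase stalk (701 and 617, ratio 0.880, 0.868 to 0.892), and Ndufb11, an accessory subunit of complex I (349 and 321, ratio 0.919, 0.901 to 0.937). By transcript length, the 87 measured genes under 500 bases had a median log2 ratio of 0.13, the 242 of 500 to 750 bases one of 0.01 and the 5136 of 2000 bases or more one of 0.10. The 7 nuclear members under 500 bases had a median of 0.13, the 28 of 500 to 750 bases one of 0.02 and the 5 of 2000 bases or more one of -0.01. The part of transcript length in these ratios was not tested. Glycolysis had 13 of 19 genes at least 1.2 times higher, with the glucose transporter gene Slc2a3 at 18.7 in Young and 44.2 in Aged (ratio 2.37, 2.21 to 2.54). Cox17 stood at 211 and 328 (1.56, 1.53 to 1.59) and Idh2 at 18.6 and 11.7 (0.628, 0.572 to 0.689). Exhaustion markers had a median log2 ratio of 0.69 and progenitor markers one of -0.31 over the same barcodes, and the part of this in the members' ratios was not tested.

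**Figure D5:**
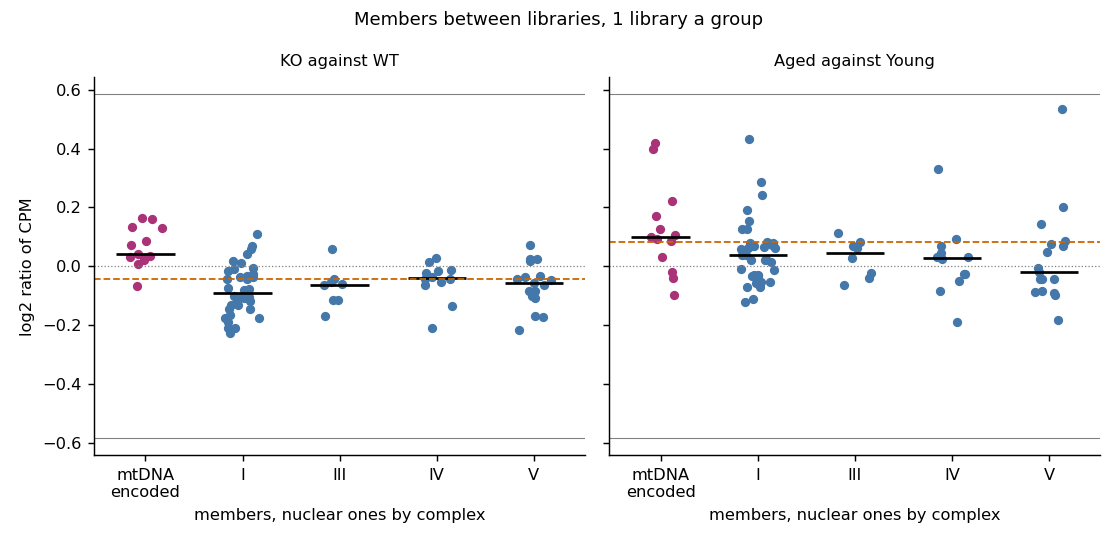
log2 ratio of CPM (pseudocount 1) of each measured member, KO against WT and Aged against Young, for mitochondrially encoded genes and for nuclear genes by complex. Short black lines are medians, the dashed orange line is the median of all measured genes (-0.04 and 0.08), and the grey solid lines mark 1.5-fold. All points lie inside the 1.5-fold lines, and Atp5k (0.53) is the highest point on the right.

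Several subunits have isoforms known from single tissues such as muscle, lung or testis. The common forms were abundant: Cox4i1 at 800.4 CPM in WT and 793 in KO, Cox6a1 at 282 and 279, Cox6b1 at 477 and 465, Cox7a2 at 419 and 403, Cox7b at 382 and 376 and Cox8a at 999 and 956. The alternative forms Cox4i2, Cox6a2, Cox7a1, Cox6b2, Cox7b2, Cox8b, Cox8c and Ndufa4l2 stayed under 10 CPM in every library, as did the pseudogene Cox5b-ps and a second annotated Atp5o row, and were not tested. Cox8c had 0 UMIs in all 4 libraries, and Cox8b 0 in WT and KO, 1 in Young and 2 in Aged.

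For Cox7b2, known from testis, 688, 171, 207 and 60 UMIs in gated barcodes of WT, KO, Young and Aged dropped to 9, 1, 4 and 4 in the barcodes with under 2 UMIs of other-type markers. In barcodes led by tumour markers it stood at 129, 101, 100.4 and 83.1 CPM. Ndufa4l2, known as a gene induced by low oxygen, had 162, 11, 16 and 1 UMIs, of which 2, 0, 0 and 0 remained. Cox6a2, the heart and muscle form, had 46 UMIs (74.3 CPM) in the 36 barcodes of Young led by dendritic markers, against 32 UMIs (0.526 CPM) in the gated barcodes of Young.

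The 3 genes for the c-ring subunit of ATP synthase encode the same mature protein, and differences among these 3 genes were not tested. In dividing cells Atp5g1 had a log2 difference of 0.31 (edgeR adjusted p = 0.0016), Atp5g2 one of 0.19 (adjusted p = 0.0034) and Atp5g3 one of 0.39 (adjusted p = 7.9e-05). In matched barcodes only Atp5g3 was called (0.11, adjusted p = 0.020). In Havcr2+Tcf7- against Tcf7+Havcr2- barcodes none was called (0.03, -0.13 and 0.12), and in matched barcodes Atp5g2 was lower (-0.19, adjusted p = 0.045).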

How the data were processed

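UMI counts per gene and barcode were deposited by the authors as filtered matrices, per the file headers from Cell Ranger 6.1.1 (WT, KO) and 7.1.0 (Young, Aged). Per the submitters' processing notes the tools were Cell Ranger 6.0.0 and Seurat 3.2.3 and the build mm10; no source used here gives the annotation release. Coordinates are from GENCODE on GRCm38. Counts were summed per library and gate and expressed as CPM. Gate differences were tested on those sums with edgeR 4.0.16 (quasi-likelihood, TMM, library as a term; R 4.3.3) over genes with a mean of at least 10 CPM, with Benjamini-Hochberg adjustment over all of them. In simulated data of 7336 genes for the Havcr2 and Tcf7 comparison, the test recovered 37.0% of the 100 genes changed 1.2-fold and 99.0% of the 99 changed 1.5-fold. The simulation gave every gene the same spread beyond counting error and set as many rises as falls. The real data need not share these settings, so the rates do not give the power of the real test. Library ratios carry exact 95% binomial intervals and levels exact Poisson intervals, which cover counting error only; their log2 used a pseudocount of 1. The 4 libraries are the replicates of gate differences, and each group has 1. For matching, equal numbers of barcodes per side were drawn in 20 bins of UMI total. Named genes were all mitochondrially encoded ones, the 3 highest and 3 lowest nuclear ones per comparison, isoform families, and the highest and lowest gene of a list. Members, lists and gates were chosen with earlier results of these data known.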

Additional observations from a re-analysis of the deposited data

Results flagged for a closer look

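Values named here were picked out because groups moved in opposite directions under the same contrast; none of these differences was tested, and each rests on 1 library per group. The share of mitochondrially encoded transcripts in Mki67+ against Mki67- barcodes had a ratio of 0.951 in KO and 1.02 in WT. In Havcr2+Tcf7- against Tcf7+Havcr2- barcodes the same ratio was 0.992 in Aged and 1.02 in Young.

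Between libraries, the KO to WT ratio of the mitochondrially encoded share was 0.993 in Mki67+ barcodes, but 1.11 in Havcr2+Tcf7-, 1.09 in Havcr2+Tcf7+, 1.04 in Tcf7+Havcr2- and 1.07 in barcodes with neither gene. The Aged to Young ratio of the nuclear share was 1.01 in Mki67+ barcodes and 0.983, 0.967, 0.988 and 0.993 in the other 4 states in the same order.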

How the results depend on the processing

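Nuclear genes higher in Mki67+ barcodes (47) numbered 37 to 43 with 1 library left out, but 22 without a filter on low levels, 22 in barcodes thinned to 2000 UMIs, 15 in barcodes matched on UMI total and 6 with no replicate block (the library term left out). Those lower (4) numbered 10 by DESeq2, 8 with DESeq2 size factors, 11 without the filter, 14 matched and 0 without the block. Mitochondrially encoded genes higher there (1) numbered 0 to 1 with 1 library left out, 2 in Young and Aged only, 4 on plain totals, and 0 without the filter, thinned, matched, in WT and KO only, without the block and without barcodes of other markers. Those lower (1) numbered 3 by DESeq2, 3 with its size factors, 8 without the filter, 2 with gates at 2 UMIs, 2 thinned, 3 in WT and KO only, 0 without the block, 2 without barcodes of other markers and 5 matched.

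Nuclear genes higher in Havcr2+Tcf7- barcodes (22) numbered 10 to 17 with 1 library left out (11 without WT, 13 without KO, 17 without Young, 10 without Aged), 7 without the filter, 2 thinned, 8 in WT and KO only, 11 in Young and Aged only, 0 without the block, 5 matched and 42 on plain totals. Those lower (2) numbered 1 to 3 with 1 library left out, 5 without the filter, 1 thinned, 1 on plain totals and 0 without the block. Mitochondrially encoded genes lower there (5) numbered 1 to 9 with 1 library left out, 8 by DESeq2, 13 without the filter, 2 with gates at 2 UMIs, 9 thinned, 9 matched, 8 in WT and KO only, 0 in Young and Aged only, 0 without the block and 1 on plain totals. Matching on UMI total and plain totals were chosen after seeing the data, as were all barcodes that passed the filters below; the cause of these changes was not tested.

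For KO against WT the log2 ratio of the mitochondrially encoded share (0.0668) was 0.0477 with a cap of 5% mitochondrial UMIs, 0.0896 without barcodes of other markers, 0.0956 without the 5% of barcodes with most UMIs, 0.0745 with mitochondrial and ribosomal protein genes left out of the total, 0.139 under TMM scaling and 0.0543 over all barcodes that passed the filters. The nuclear value (-0.0514) was -0.0355 without barcodes of other markers, -0.0401 without the deepest, -0.0437 with the reduced total, 0.0212 (reversed) under TMM, -0.0438 with equal weights of gate states and -0.071 over all barcodes. The ratio of both (0.118) was 0.097 with the 5% cap, 0.125 without barcodes of other markers, 0.136 without the deepest, 0.112 with equal weights and 0.125 over all barcodes. For Aged against Young the mitochondrially encoded value (0.0766) was 0.0838 without the deepest, 0.0536 under TMM and 0.0873 over all barcodes. The nuclear value (0.0149) was 0.0102 without barcodes of other markers, 0.00384 without the deepest, and reversed to -0.00809 under TMM, -0.00785 with equal weights and -0.00383 over all barcodes. The ratio of both (0.0617) was 0.08 without the deepest, 0.0804 with equal weights and 0.0911 over all barcodes.

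Limits: each group was 1 library of pooled mice, so no spread between mice was measured. Gates of 1 UMI miss expressing cells, more so at low depth, and doublets were not removed.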
